A study of Mus musculus with 4 samples.

Results

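The tumour suppressor p53 and the BCL2 protein family set how readily a cell enters apoptosis through its mitochondria. This account covers 10 of their genes: Trp53, Cdkn1a, Bbc3, Bad, Bax, Bak1, Bcl2, Bcl2l1, Bcl2l2 and Mcl1. They were taken by gene symbol from a deposited table of 25265 genes, and all 10 had a row. They were measured in whole testes of C57BL/6 mice at postnatal day 56, with 2 control libraries and 2 libraries labelled Ythdf2-vKO. The series title describes germ cell-specific mutants of Ythdf2, whose protein recognises N6-methyladenosine (m6A) in RNA and promotes the decay of that RNA. The labels give neither the deleted exons nor the Cre line, and they do not tie libraries to animals, so p-values measure only the spread between these libraries, which may be technical.

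Each of the 10 genes has a known place in the pathway. p53, encoded by Trp53, is a transcription factor that accumulates after DNA damage and activates genes for cell-cycle arrest and for death. BH3-only proteins relay death signals, the effectors BAX and BAK open pores in the outer mitochondrial membrane, and pro-survival relatives of BCL2 hold both in check. In the testis the balance matters for the number of germ cells: male mice without Bax or without Bcl2l2 are known to be infertile, and many spermatogonia die by apoptosis in normal development.

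None of the 10 genes was called between the libraries labelled Ythdf2-vKO and control by edgeR's quasi-likelihood test, where a call means an adjusted p under 0.05. Over all 21132 genes tested, 0.393% were called. The largest positive difference among the 10 was that of Trp53, at 1.53-fold, followed by Bbc3 at 1.41-fold and Cdkn1a at 1.30-fold. These 3 genes had an unadjusted p under 0.05, as did 7.65% of all genes tested in the same direction. None of the 10 did in the other direction, against 6.47% of all genes tested. In a DESeq2 Wald test on the same counts, 0 of 9 genes with an adjusted p were called, and 1 of the 10 had an unadjusted p under 0.05. Over all genes, that test called 217 of the 16448 with an adjusted p. In it, 2213 of the 25265 genes deposited had an unadjusted p under 0.05. The pro-survival genes Bcl2l1 and Mcl1, the most abundant of the set per length, differed by 1.13-fold and 1.05-fold.

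Total gene counts ran from 24862518 to 29561182 per library. Ythdf2 was examined first as a check of the labels: both Ythdf2-vKO libraries (1774 and 1807 counts) exceeded both controls (1193 and 1604), and edgeR's quasi-likelihood test gave a log2 fold change of 0.35, SE 0.13 and adjusted p 0.238. The targeted transcript was therefore not lower, a gene-level count cannot reveal a deleted exon, and every direction given here is that of the labelled groups. The tissue label was checked against germ cell and somatic markers. Summed over each list, elongating spermatid markers (Prm1, Prm2, Tnp1, Tnp2, Odf1) stood at 4736 to 6279 CPM (read counts scaled to a common library size), spermatocyte markers at 894 to 982.4 CPM and Sertoli cell markers at 126.5 to 193.4 CPM. Epididymal markers summed to at most 8.17 CPM, of which Rnase10 made 8.13, and the epididymal markers Lcn8 and Lcn9 had no row.

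To show the DNA through which p53 could read these genes, promoter windows of 300 bases, from 250 before to 50 after a transcript start, were taken from RefSeq (GRCm38.p6) and searched on both strands for the p53 decamer, the half-site that p53 binds in pairs. All 10 genes had at least 1 window, 16 in all. The exact decamer was found in 1 window each of Trp53, Cdkn1a and Bax, and in 8.36% of all 32851 windows. This Cdkn1a window held 2 exact decamers 12 bases apart, and 0.359% of all windows held 2 or more. Near-matches, such as the bases directly after the second Cdkn1a decamer, were not searched. The marked pair is therefore not shown to be the pair that p53 binds. The other Cdkn1a window, chr17:29093519-29093818, held 0 decamers. The 3 windows are shown because they carry the matches, with the decamers in capitals, on the strand of the gene.
Trp53, chr11:69580109-69580408, plus strand, with the decamer beginning 75 bases before the start: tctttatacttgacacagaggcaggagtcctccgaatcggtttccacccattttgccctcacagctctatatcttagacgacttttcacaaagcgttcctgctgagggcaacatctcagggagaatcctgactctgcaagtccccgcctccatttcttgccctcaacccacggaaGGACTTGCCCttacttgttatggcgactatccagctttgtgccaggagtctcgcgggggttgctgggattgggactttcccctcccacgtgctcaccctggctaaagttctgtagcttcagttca
Cdkn1a, chr17:29090729-29091028, plus strand, with decamers beginning 73 and 51 bases before the start: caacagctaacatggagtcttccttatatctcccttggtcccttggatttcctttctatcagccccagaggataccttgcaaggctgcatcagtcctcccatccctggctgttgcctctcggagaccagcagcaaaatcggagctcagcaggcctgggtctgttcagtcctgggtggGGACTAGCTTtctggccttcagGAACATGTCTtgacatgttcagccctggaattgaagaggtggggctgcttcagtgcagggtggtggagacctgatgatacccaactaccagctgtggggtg
Bax, chr7:45466849-45467148, minus strand, with the decamer beginning 201 bases before the start: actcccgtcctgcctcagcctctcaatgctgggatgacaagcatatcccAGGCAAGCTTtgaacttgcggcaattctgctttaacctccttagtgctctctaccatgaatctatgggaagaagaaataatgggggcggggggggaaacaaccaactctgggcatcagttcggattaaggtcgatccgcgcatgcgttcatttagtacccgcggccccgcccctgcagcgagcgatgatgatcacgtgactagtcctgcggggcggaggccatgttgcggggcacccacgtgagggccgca
A match is a description of these letters, and binding of p53 was not measured. A GC-rich element, GGGCGG on either strand, was present in 9 of the 16 windows and in 35.7% of all windows, and CCAAT on either strand in 3 of the 16 and in 37.4%.

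Trp53 (ENSMUSG00000059552, plus strand of chromosome 11, 69580359 to 69591873) had 345 and 367 counts in control, against 652 and 455 in Ythdf2-vKO. Scaled by the trimmed mean of M-values (TMM), this was 14.8 and 12.2 CPM in control, against 24.4 and 16.9 in Ythdf2-vKO. The groups did not overlap, but the Ythdf2-vKO libraries lay further apart than their lower one did from the higher control. The means were 13.5 ± 1.78 and 20.6 ± 5.3 CPM (SD, n = 2 each), and edgeR's quasi-likelihood test gave a log2 fold change of 0.61, SE 0.19 and adjusted p 0.193. By unadjusted p it ranked 855th of the genes tested. Ythdf2-vKO replicate 1 carried much of the difference, since without it the log2 fold change was 0.32. Without control replicate 1 the log2 fold change was 0.74. In the authors' deposited table the log2 fold change of Trp53 was 0.61 (SE 0.23), with an adjusted p of 0.191.

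Cdkn1a (ENSMUSG00000023067, plus strand of chromosome 17, 29090976 to 29100727) encodes p21, the inhibitor of cyclin-dependent kinases through which p53 halts the cell cycle. It had 10.4 and 10.7 CPM in control, against 13.8 and 13.6 in Ythdf2-vKO. Its replicates lay closest together of the 10 genes relative to the gap between the groups, at 10.6 ± 0.22 against 13.7 ± 0.128 CPM (SD, n = 2 each). By edgeR's quasi-likelihood test its log2 fold change was 0.38 (SE 0.17) at adjusted p 0.328. The difference ran from 0.26 to 0.44 over 14 alternatives. An annotated transcript on the opposite strand, AC167363.2, overlaps 273 nt of its exons and had 62 to 101 counts, against 243 to 370 for Cdkn1a, and the use of strand in counting is not stated.

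The BH3-only genes went different ways. Bbc3 (ENSMUSG00000002083, chromosome 7, 16308393 to 16318205) encodes PUMA, a direct p53 target that neutralises all pro-survival relatives. It had 7.06 and 5.27 CPM in control, against 7.66 and 9.67 in Ythdf2-vKO. The groups did not overlap, and the gap between them was smaller than the spread within either. By edgeR's quasi-likelihood test its log2 fold change was 0.50 (SE 0.22) at adjusted p 0.335, and the fits without single libraries gave 0.30 to 0.71. Bad (ENSMUSG00000024959, chromosome 19, 6941861 to 6951899), whose protein is held inactive by phosphorylation downstream of growth factors, had 43.3 and 47.7 CPM in control, against 39.7 and 44.0 in Ythdf2-vKO. Its groups overlapped, and the log2 fold change was -0.12 (SE 0.14, adjusted p 0.753). Gpr137 overlaps Bad on the opposite strand over 524 nt of exons and had 3167 to 3561 counts, against 1011 to 1430 for Bad.

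Of the pore-forming effectors, Bak1 had more CPM than Bax in each library. Bax (ENSMUSG00000003873, minus strand of chromosome 7, 45461697 to 45466898) had 4.96 and 7.27 CPM in control, against 7.14 and 8.71 in Ythdf2-vKO. Control replicate 1 stood lowest and the other control lay between the Ythdf2-vKO libraries, so the groups overlapped. The log2 fold change was 0.37 (SE 0.23, adjusted p 0.524), and without control replicate 1 it was 0.12. Bak1 (ENSMUSG00000057789, minus strand of chromosome 17, 27019810 to 27029009) had 18.1 and 16.7 CPM in control, against 16.9 and 16.5 in Ythdf2-vKO. These 4 values differed little, and the log2 fold change was -0.06 (SE 0.15, adjusted p 0.911), or 0.01 when libraries were scaled by their totals alone. The gene Ggnbp1 shares 437 nt of exons with Bak1 on the opposite strand and had 14011 to 17598 counts, against 424 to 502 for Bak1. Gm45808 shares 192 nt of exons with Bax on the same strand and had no row. Per kilobase of annotated exons, Bax stood at 41.8 and 66.3 per 100 of Bak1 in control and at 64.4 and 80.5 in Ythdf2-vKO. With the length of the longest transcript the means were 76.8 and 102.9 per 100, so that Bax stood above Bak1 in Ythdf2-vKO under that length.

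Among the pro-survival genes, Bcl2l1 and Mcl1 made up nearly the whole. Bcl2l1 (ENSMUSG00000007659, minus strand of chromosome 2, 152780668 to 152831728), which encodes BCL-XL, had 130.1 and 116.4 CPM in control, against 137.1 and 142.5 in Ythdf2-vKO. Its groups did not overlap, with means of 123.3 ± 9.65 and 139.8 ± 3.84 CPM (SD, n = 2 each), and edgeR's quasi-likelihood test gave a log2 fold change of 0.18, SE 0.12 and adjusted p 0.557. Mcl1 (ENSMUSG00000038612, chromosome 3, 95658788 to 95663176) encodes a short-lived protein that must be made continuously. It had 104.2 and 107.4 CPM in control, against 111.7 and 109.5 in Ythdf2-vKO (log2 fold change 0.06, SE 0.12, adjusted p 0.868). The Mcl1 groups did not overlap either, and they lay within a narrow range.

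Bcl2l2 (ENSMUSG00000089682, chromosome 14, 54883377 to 54888234), which encodes BCL-W, had 22.7 and 18.9 CPM in control, against 23.0 and 22.3 in Ythdf2-vKO. The log2 fold change was 0.12 (SE 0.15, adjusted p 0.781), and it was -0.00098 without control replicate 2. The gene Gm20521 shares 594 nt of its exons on the same strand. Bcl2 itself (ENSMUSG00000057329, minus strand of chromosome 1, 106538178 to 106714274) was nearly absent from these libraries, with 5 and 34 counts in control and 13 and 7 in Ythdf2-vKO. Both Ythdf2-vKO values lay between the controls. Its log2 fold change of -0.89 (SE 0.74, adjusted p 0.649) rested on control replicate 2, and without that library it was 0.79. D630008O14Rik overlaps 558 nt of Bcl2 exons on the opposite strand and had no row.

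**Figure D1:**
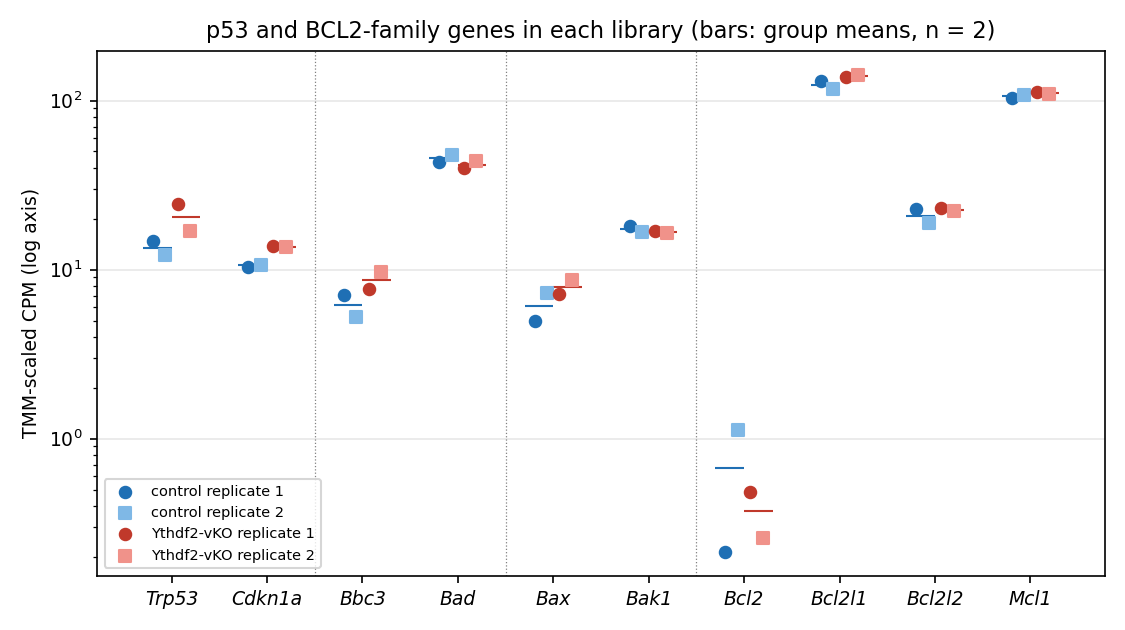
TMM-scaled CPM on a log axis for each of the 10 genes in each of the 4 libraries, with circles for replicate 1, squares for replicate 2 and short bars for group means (n = 2). Bcl2l1 and Mcl1 sit above 100 CPM in each library, Bcl2 lies at 0.214 to 1.13 CPM, and Trp53 is highest in Ythdf2-vKO replicate 1 at 24.4 CPM.

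Levels were compared between genes as CPM per kilobase of annotated exons. Averaged over the 4 libraries, Mcl1 stood highest at 31.7 CPM per kb and Bcl2l1 next at 28.7, with overlapping ranges over libraries (30.5 to 32.7 and 25.4 to 31.1). Bad followed at 17.1 and Bak1 at 7.10, each apart from its neighbours in all 4 libraries. Bcl2l2 (4.87), Bax (4.45), Trp53 (4.22), Bbc3 (3.49) and Cdkn1a (3.42) formed a group in which each gene's range overlapped the next. Bcl2 was last, at 0.0571 CPM per kb. With the length of the longest transcript in place of all annotated exons, Bcl2l1 came first at 51.2 and Mcl1 second at 31.7. Bad, Bak1 and Bcl2 kept their places, and the 5 genes between Bak1 and Bcl2 then stood in the order Bax (6.38), Cdkn1a (5.84), Bcl2l2 (5.70), Trp53 (5.21) and Bbc3 (4.09).

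In shares of the summed pro-survival level per kilobase, Mcl1 held 47.7% and 51.4% in control and 48.2% and 47.0% in Ythdf2-vKO. Bcl2l1 held 44.4% and 41.5% in control and 44.1% and 45.6% in Ythdf2-vKO. The groups overlapped for both genes. Bcl2l2 took between 6.93% and 7.95%, and Bcl2 at most 0.202%. Against the same pro-survival sum set to 100, the effectors Bax and Bak1 together stood at 16.7 and 18.9 in control and at 17.1 and 18.2 in Ythdf2-vKO, and the control values enclosed those of Ythdf2-vKO. The BH3-only pair stood at 31.6 and 34.5 in control and at 28.2 and 31.9 in Ythdf2-vKO.

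**Figure D2:**
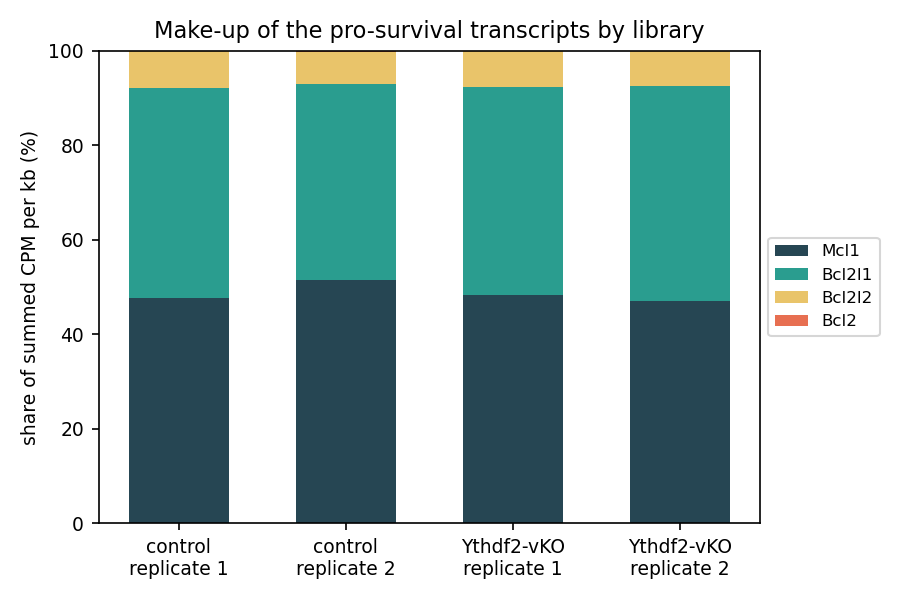
Stacked bars give the share, in percent, of Mcl1, Bcl2l1, Bcl2l2 and Bcl2 in their summed CPM per kb of exons, 1 bar per library. Mcl1 holds 47.0% to 51.4% in each bar, and Bcl2, at 0.0365% to 0.202%, is too thin to see.

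Of the 10 genes, 7 had a positive log2 fold change, against 50.3% of all genes tested. With scaling by library totals alone 8 of the 10 did, against 12569 of the 21132 genes tested. The median was 0.15, against 0.00 over all genes tested, and with library totals alone it was 0.222 against 0.0674. In 5 of the 10 (Trp53, Cdkn1a, Bbc3, Bcl2l1 and Mcl1) both Ythdf2-vKO libraries lay above both controls, which held for 22.7% of all genes tested. In none did both lie below, against 22.6% of all genes.

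GC content moved with several of these values. The deviation of a library from the mean of the 4 correlated with transcript GC content across 17800 genes at a Spearman rho of 0.0239 and -0.4 for control replicates 1 and 2, and of 0.254 and 0.189 for those of Ythdf2-vKO. Genes are not independent replicates, and these values describe the libraries. The longest transcript of Bbc3 was 65.2% GC and that of Bax 63.5%, against a median of 48.9% over all genes tested. With an offset for GC content the log2 fold change of Bbc3 was 0.27, that of Bax 0.10, that of Bcl2l1 0.03 and that of Cdkn1a 0.26. Trp53, at 53.3% GC, kept 0.52 with this offset. The values of Bad and Bak1, both at 57.1% GC, became -0.31 and -0.24, and the median of the 10 became 0.06 against -0.02 for all genes.

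**Figure D3:**
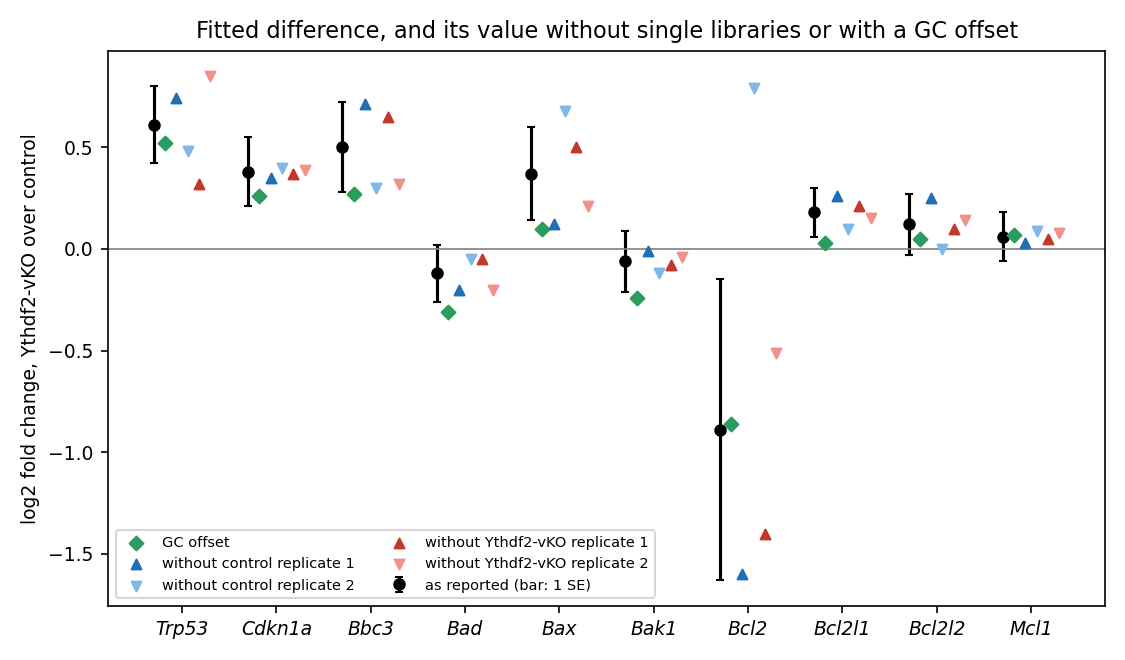
Log2 fold change of Ythdf2-vKO over control for each gene as reported (black, bar of 1 SE), with an offset for GC content (green), and in the fits without each single library (triangles). Cdkn1a stays between 0.26 and 0.40 over the values drawn, Trp53 spans 0.32 to 0.85, and Bcl2 spans -1.60 to 0.79.

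Markers of cell types that whole testis could hold were summed beside these values. All 5 Sertoli cell markers had a positive log2 fold change, and their sum was 126.5 and 133 CPM in control, against 193.4 and 185.7 in Ythdf2-vKO. One of them, Wt1, was called (adjusted p 0.0418). The 5 spermatogonial markers summed to 34.3 and 38.8 CPM in control and to 49.1 and 41.5 CPM in Ythdf2-vKO, and the 5 Leydig cell markers to 244.1 and 298.9 against 404.8 and 293.6 CPM. Both sums were highest in Ythdf2-vKO replicate 1, where Trp53 was highest too. So were those of the Sertoli cell, erythrocyte, macrophage and spermatocyte markers, while the remaining sums were highest in other libraries. The Leydig cell sums overlapped between groups. The 5 elongating spermatid markers, which all had a negative log2 fold change, summed to 6279 and 5205 CPM in control and to 4736 and 4854 CPM in Ythdf2-vKO. The 3 erythrocyte markers summed to 26.3 and 31.9 CPM in control and to 41.1 and 38.0 CPM in Ythdf2-vKO. Of these, Alas2 exceeded the globin genes Hbb-bs and Hba-a1 in each library. Its groups overlapped, at 17.4 and 22.9 CPM in control against 22.3 and 26.5 in Ythdf2-vKO. The 4 endothelial markers summed to 6.72 and 7.54 CPM in control, against 9.41 and 10.9 CPM in Ythdf2-vKO. Of the 4 epididymis markers, Lcn8 and Lcn9 had no row and Crisp1 had 1 to 9 counts. The remaining one, Rnase10, had 8.13 and 7.57 CPM in control, against 5.34 and 5.93 CPM in Ythdf2-vKO. Summed markers of spermatocytes, round spermatids, peritubular myoid cells and macrophages overlapped between groups. In whole-tissue RNA, fewer cells of a type and less RNA per cell cannot be told apart, and the part of these markers in the values of the 10 genes was not tested.

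Other genes of the pathway were read from 5 lists with 73 genes, of which 66 were tested. None was called by edgeR's quasi-likelihood test, and none by the DESeq2 Wald test. At an unadjusted p under 0.05 there were 8 in edgeR, 7 higher and 1 lower, and 8 in DESeq2. For comparison, 14.1% of all genes tested had an unadjusted p under 0.05 in edgeR, and 2213 of the 25265 genes deposited did in DESeq2. The median log2 fold change over the 66 genes was 0.10, or 0.09 with the GC offset.

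Among the p53 target genes, 16 of 17 were tested and 11 had a positive log2 fold change. The median was 0.22, or 0.18 with the GC offset. Both Ythdf2-vKO libraries lay above both controls in 9 of the 16 and below both in 0, against 22.7% and 22.6% of all genes tested. The 3 with the smallest p were Sesn2, Phlda3 and Gadd45a. Sesn2, which encodes a stress-induced inhibitor of mTORC1 signalling, had 31.4 and 24.1 CPM in control, against 43.4 and 39.1 in Ythdf2-vKO (log2 fold change 0.57, SE 0.16, adjusted p 0.135). Phlda3, which encodes an inhibitor of AKT, had 1.97 and 3.57 CPM in control, against 5.90 and 5.26 in Ythdf2-vKO (log2 fold change 0.99, SE 0.29, adjusted p 0.16). Gadd45a, a gene of growth arrest after DNA damage, had 1.33 and 2.17 CPM in control, against 3.89 and 2.93 in Ythdf2-vKO (log2 fold change 0.95, SE 0.33, adjusted p 0.225). None of the 3 was called with all 4 libraries in the fit described. The fits without single libraries gave log2 fold changes of 0.40 to 0.77 for Sesn2 and 0.64 to 1.36 for Gadd45a. For Phlda3 the lowest was 0.64, without control replicate 1. With an offset for GC content the log2 fold change of Sesn2 was 0.37, that of Phlda3 0.72 and that of Gadd45a 0.94. Eda2r was not tested.

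The regulators and relatives of p53 showed no shared direction. Of 12 genes 11 were tested, 5 with a positive log2 fold change and a median of -0.01, or 0.04 with the GC offset. Atr, the kinase that signals stalled replication and unpaired meiotic chromosomes, had 357.3 and 364.5 CPM in control, against 304.1 and 267.1 in Ythdf2-vKO (log2 fold change -0.34, SE 0.12, adjusted p 0.234). Its log2 fold change was -0.43 to -0.25 in the fits without single libraries. Hipk2 (-0.25, adjusted p 0.469) and Atm (-0.30, adjusted p 0.526), kinases that act on p53, followed by p. With the GC offset Atr stood at -0.27, Hipk2 at -0.34 and Atm at -0.24. Trp73 was not tested.

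The remaining BCL2-family genes had 11 of 15 tested, 6 of them with a positive log2 fold change, and a median of 0.05, or -0.09 with the GC offset. Pmaip1, which encodes the BH3-only protein NOXA and is a p53 target, had 2.70 and 3.34 CPM in control, against 4.48 and 4.30 in Ythdf2-vKO (log2 fold change 0.54, SE 0.25, adjusted p 0.368). Bok, an effector relative of Bax, had a log2 fold change of 0.38 (adjusted p 0.455), or 0.14 with the GC offset. Bcl2a1a, a pro-survival gene, had 8 and 17 counts against 18 and 29 (adjusted p 0.501). With the GC offset the log2 fold changes of Pmaip1 and Bcl2a1a were 0.60 and 0.96, against 0.54 and 0.92 without it. Hrk, Bcl2l10, Bcl2a1b and Bcl2a1d were not tested, and the Bcl2a1 genes are near-identical copies among which reads can be divided, so the value of Bcl2a1a is uncertain.

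Downstream of the mitochondria, all 19 genes of the apoptosome, the caspases and their inhibitors were tested, with 11 positive and a median log2 fold change of 0.11, or 0.04 with the GC offset. Birc3, an inhibitor of apoptosis induced by NF-kappaB, had 2.74 and 3.80 CPM in control, against 5.68 and 6.38 in Ythdf2-vKO (log2 fold change 0.87, SE 0.25, adjusted p 0.152). Casp8, the initiator caspase of death receptors, had 1.24 and 2.64 CPM in control, against 4.30 and 3.52 in Ythdf2-vKO (log2 fold change 0.99, SE 0.34, adjusted p 0.229). The fits without single libraries gave log2 fold changes of 0.66 to 1.14 for Birc3 and 0.56 to 1.65 for Casp8. Htra2, a mitochondrial protease released in apoptosis, had a log2 fold change of 0.28 (adjusted p 0.452), or 0.04 with the GC offset. Birc3 and Casp8 changed little with that offset, to 0.89 and 1.01.

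In the death receptor list, 9 of 10 genes were tested, 6 with a positive log2 fold change. The median was 0.16, or 0.13 with the GC offset. Tnfrsf1a, the main receptor of tumour necrosis factor, had 15.0 and 15.1 CPM in control, against 21.4 and 19.3 in Ythdf2-vKO (log2 fold change 0.43, SE 0.15, adjusted p 0.232). Its adaptors Tradd and Traf2 had log2 fold changes of 0.37 (adjusted p 0.576) and 0.16 (adjusted p 0.693). With the GC offset Tnfrsf1a stood at 0.27, Tradd at 0.18 and Traf2 at 0.13. The value of Traf2 rested on single libraries, being -0.01 without Ythdf2-vKO replicate 2 and 0.32 without Ythdf2-vKO replicate 1. Tnfsf10 was not tested.

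**Figure D4:**
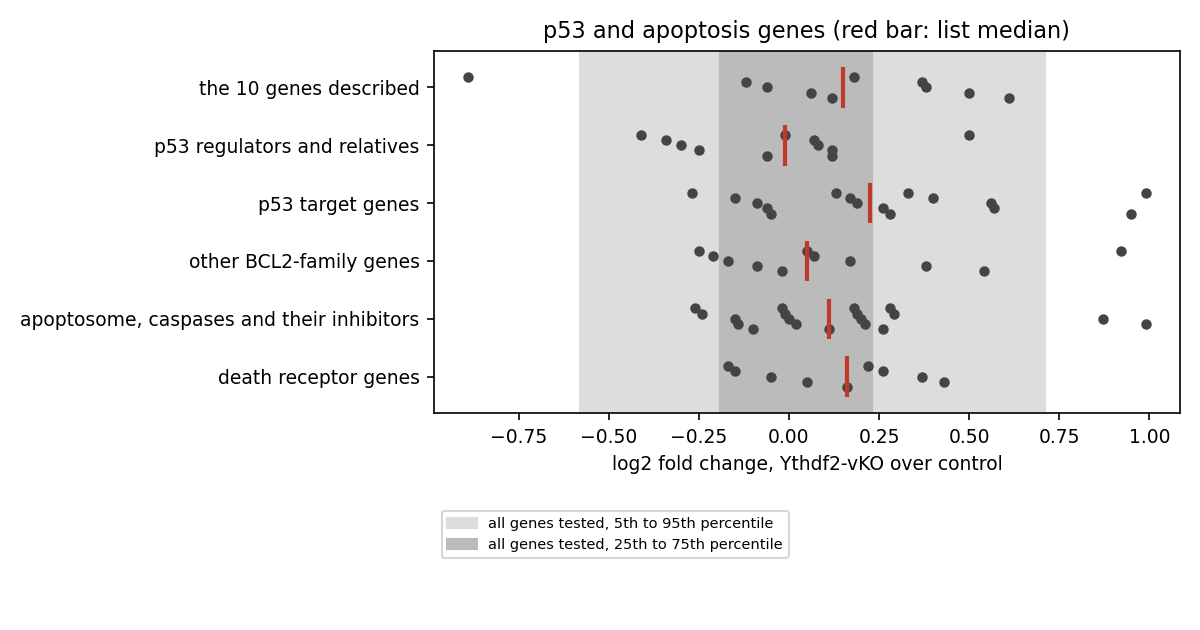
Each point is the log2 fold change of Ythdf2-vKO over control of 1 tested gene, in rows for the 10 genes described and the 5 pathway lists, with a red bar at each median and grey bands for all genes tested. Medians run from -0.01 to 0.22, and 50% of all genes lie in the inner band from -0.19 to 0.23.

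Because YTHDF2 reads m6A, the motif GGACT, one of the sequences in which m6A is laid down, was counted on the sense strand of the longest transcript of each gene. Sites per kb were 2.76 in Bbc3, 2.73 in Bax, 2.34 in Mcl1, 1.96 in Bad and 1.92 in Cdkn1a. They were 1.68 in Bak1, 1.25 in Bcl2, 1.17 in Bcl2l1, 0.787 in Bcl2l2 and 0.305 in Trp53. The median over all genes tested was 1.02. The lowest value, that of Trp53, was 1 site in 3275 nt. A relation of these densities to the log2 fold changes was not tested. These counts describe the annotated sequence, and m6A itself was not measured.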

How the data were processed

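Whole-testis RNA was depleted of ribosomal RNA and made into directional libraries, per the labels' protocols. HISAT2 2.1.0 and HTSeq 0.6.1p1 are named, with no settings, per the submitters' processing notes. The genome build and the use of strand are not given in the sources used here. The authors deposited raw read counts per gene, and, per the file headers, DESeq2 results: a mean normalized count (a signal that is never negative), the log2 fold change and its error, a test statistic (a score) and p-values with adjusted p-values. A DESeq2 Wald test recomputed from the deposited counts differed from the deposited log2 fold changes by at most 3.7e-08.

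Counts were tested with edgeR 4.0.16 (limma 3.58.1, R 4.3.3): TMM scaling, the filterByExpr filter, a robust quasi-likelihood fit with genotype as its only term, a two-sided F test and Benjamini-Hochberg adjustment over 21132 genes, with calls at an adjusted p under 0.05 and a prior count of 0.125. The fit was tested on simulated data. The standard error was the absolute log2 fold change divided by the square root of F. Replicates of a group differed by more than sampling noise (chi-square per degree of freedom 21.2 in control and 8.41 in Ythdf2-vKO), so none were merged. GENCODE M21 (GRCm38) gave coordinates, exon lengths and GC content by gene identifier, for 25261 of 25265 genes. The GC offset was a spline of 5 degrees of freedom per library, centred on a median of 0. DESeq2 1.42.0, other scalings and filters, a replicate block and leaving out each library were the alternatives. The 10 genes and the lists were chosen with earlier results of these data known. Named in the text are Ythdf2, the 10 genes, and of each pathway list any called gene or otherwise the 3 with the smallest p. Reads carry no molecular identifiers. With 4 libraries, no genes were ranked by likeness of pattern.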

Additional observations from a re-analysis of the deposited data

How the results depend on the processing

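The 10 genes kept 0 calls under DESeq2 size factors, library totals alone, both other filters, a fit without robust estimation, the DESeq2 Wald test, a prior count of 2 and the GC offset, and so did the 66 tested pathway genes (57 to 71 with an adjusted p). Bcl2 gave no value with at least 10 counts in every library. The replicate numbers are not said to mark anything and their deviations correlated at 0.0932 over only 2 pairs, so they were not taken as pairing. With the replicate block, 1017 genes were called in all, 1 of the 10 (Trp53, log2 fold change 0.59, adjusted p 0.0216) and 3 pathway genes, Sesn2 (0.00548), Phlda3 (0.025) and Birc3 (0.0314). With that replicate block plus the GC offset these were 1307, 1 (Trp53, 0.50, adjusted p 0.029) and 3, Sesn2 (0.0415), Birc3 (0.0151) and Casp8 (0.0252). Leaving out single libraries gave 35 to 1512 calls in all, 0 to 1 among the 10 genes and 0 to 4 among the pathway genes. These fits leave 1 library in a group, which is assumed to vary like the others. Over all genes, library totals alone gave 218 calls, the DESeq2 Wald test 217 and the GC offset 142, against 83. Higher calls were 71.1% of the 83, 83% with library totals alone, 52.1% with the GC offset, 61.7% with the replicate block and 37.7% with both of these, where lower calls were the majority. The cause was not tested.

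The log2 fold change reversed for Bak1 with library totals alone (0.01), and without control replicate 2 for Bcl2 (0.79) and Bcl2l2 (-0.00098). Leaving out single libraries gave -1.60 to 0.79 for Bcl2 and -0.00098 to 0.25 for Bcl2l2. That of Trp53 ran from 0.32 to 0.85 over 14 alternatives, with adjusted p values from 0.00536 to 0.914, and it passed in 3 of them. With the length of the longest transcript, the shares of pro-survival transcripts in control and Ythdf2-vKO were 56.8% and 58.7% for Bcl2l1, 36.7% and 34.9% for Mcl1, and 6.44% and 6.40% for Bcl2l2. This alternative moved 12 of the 20 levels per kilobase by more than 1 SD, since it changes the length itself. The value of Bcl2 rests on 5 to 34 counts per library, with an SE of 0.74.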

Other observations

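Some pathway genes were chosen for mention after their levels per kilobase of exons were seen, and not all of them stood above the 10 genes. Bcl2l14, which encodes BCL-G, had 119.1 and 118.7 CPM per kb in control and 100.6 and 110.4 in Ythdf2-vKO, above Mcl1 in each library. Ppm1d, which encodes the phosphatase WIP1 that acts against p53 signalling, had 134 and 122.3 CPM per kb in control and 138.7 and 139.2 in Ythdf2-vKO. Mdm2, the ubiquitin ligase that targets p53 for degradation, had 34.9 to 38.9 CPM per kb over the 4 libraries. Usp7, also of the p53 regulators, had 47.5 to 50.8 CPM per kb. The testis form of cytochrome c, Cyct, had 82.4 to 97.5 CPM per kb, and the somatic form, Cycs, 7.65 to 10.9.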
